A study of Homo sapiens with 6 samples.

Results

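The genes described here encode the main parts of the MHC class I presentation pathway: the heavy chains HLA-B, HLA-C, HLA-E and HLA-F, the light chain B2M, the peptide transporter TAP1 and TAP2, the loading bridge TAPBP and the trimming enzyme ERAP1. They were taken by gene symbol from the deposited expression table, and all 9 were found among the 58735 genes listed. All 9 also passed the filter on low counts that left 15089 genes for testing.

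Class I molecules show peptides made inside a cell to cytotoxic T cells and natural killer cells. A heavy chain folds with beta-2 microglobulin in the endoplasmic reticulum, and without this light chain most heavy chains do not reach the surface. The TAP1 and TAP2 transporter pumps peptides in, ERAP1 trims them, and tapasin, the product of TAPBP, holds the empty heavy chain at the transporter until a fitting peptide is bound.

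RNA-seq was performed on PANC-1, an established human cell line from a pancreatic ductal adenocarcinoma, to ask which transcripts depend on METTL16, an RNA methyltransferase that deposits N6-methyladenosine. There were 3 libraries from cells given control siRNA, named si-NC, and 3 from cells given siRNA against METTL16, named si-METTL16. The methods of the study describe the triplicates as biological and the transfection as stable, while a further label of the control samples reads WT. The sources used here give neither the number of siRNAs in each transfection nor the time before harvest, and all cells come from 1 line.

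Library totals ran from 15725298 to 18054436 counts, so that 3 counts in a library were worth 0.167 to 0.192 CPM (counts divided by the library total and expressed per 1000000, with totals scaled by TMM factors of 0.987 to 1.01). The targeted transcript METTL16 was at 91.5, 96.7 and 101 CPM in si-NC replicates 1, 2 and 3 and at 34.8, 33.9 and 34.9 CPM in si-METTL16 replicates 1, 2 and 3. Its level was thus lowered to nearly the same point in each silenced library (log2 fold change -1.48, SE 0.07, edgeR quasi-likelihood test with Benjamini-Hochberg adjustment, adjusted p = 8.34e-05). The ductal keratins KRT8 and KRT18 led a ductal marker sum of 3060 to 4140 CPM in the controls and 3280 to 3580 CPM after silencing. Of the 8 ductal markers, 4 fell (KRT7, KRT19, CDH1 and SOX9) and 0 rose. Of the 4 tested leukocyte markers, LAPTM5 (-2.73) and CD14 (-1.0) fell and CD68 (0.67) rose on the log2 scale. Among all genes tested, 17.5% fell and 18.4% rose at an adjusted p under 0.05. The leukocyte markers CD3E and NKG7 had 0 counts in all 6 libraries. PTPRC, a further one, had 5, 5 and 5 counts in si-NC and 0, 0 and 3 in si-METTL16. The 8 leukocyte markers summed to 11.7 to 14.1 CPM in the controls and 10.7 to 12.4 CPM after silencing. The 6 fibroblast markers summed to 331 to 383 CPM in the controls and 816 to 856 CPM after silencing, nearly all of it COL1A1, while COL1A2 had at most 1 count in any library. The part of these shifts in the results was not tested. In bulk RNA, fewer cells expressing a gene and less RNA per cell cannot be told apart, and the p-values measure only the spread between these 6 libraries.

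After silencing of METTL16, TAPBP fell to 47.8% of its si-NC mean and was the single gene of the 9 that passed the test. B2M was at 21.4% and 19.3% of its si-NC mean in si-METTL16 replicates 1 and 3 but at 96.3% in replicate 2, and did not pass. HLA-B, HLA-C, HLA-E, TAP1, TAP2 and ERAP1 did not pass either, with log2 fold changes between -0.18 and 0.16. Among all genes tested, 35.9% passed in either direction, 17.5% of them lower and 18.4% higher in si-METTL16, so a call in 1 of 9 was no more frequent than in the whole table. No gene of the 9 passed the edgeR test in the higher direction, and at an unadjusted p under 0.05 the count of the 9 was also 1, again TAPBP, against 46.3% of all genes tested. Of the 9 fold changes, 6 were negative and 3 positive, with a median of -0.07 on the log2 scale against 0 for all genes tested. The values of the groups did not overlap for 4 of the 9 (HLA-F, B2M, TAP2 and TAPBP), each lower in si-METTL16. Among all genes tested, 50.9% did not overlap, with 25.2% lower and 25.7% higher.

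**Figure D1:**
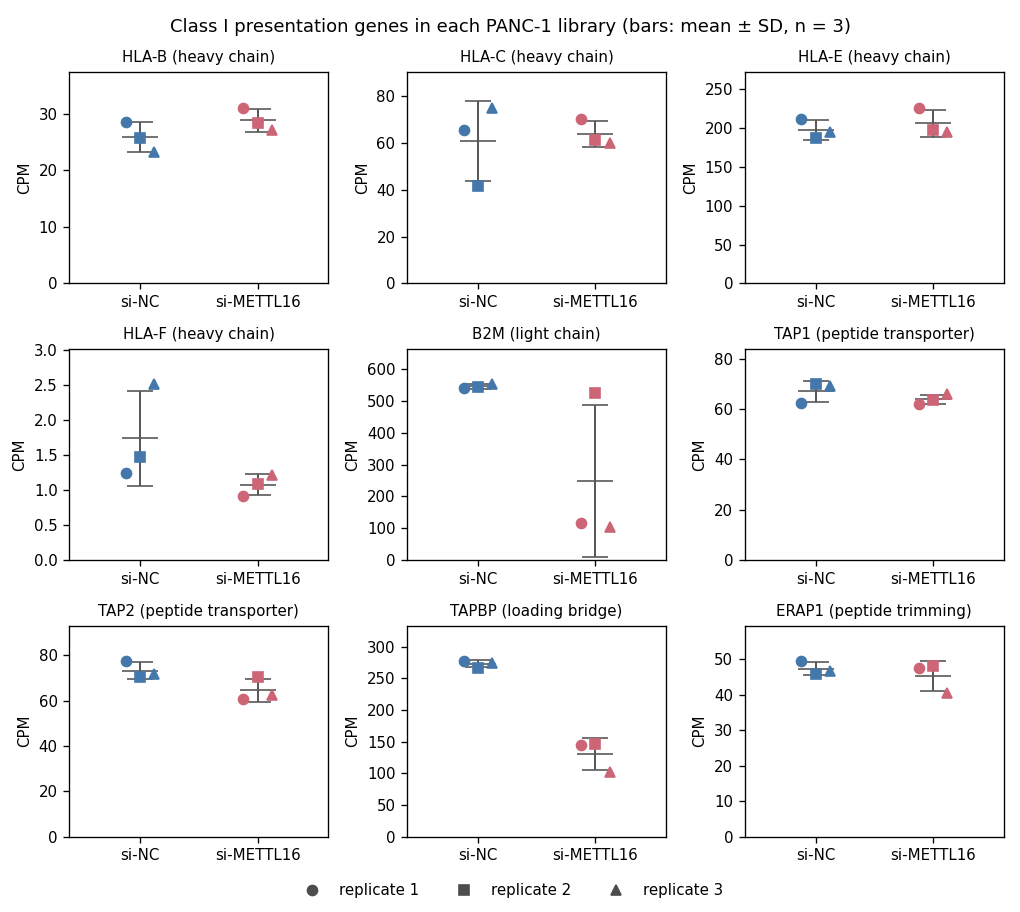
Level of each of the 9 class I presentation genes in CPM (vertical axes, from 0) in the 3 si-NC and 3 si-METTL16 libraries, with 1 point per library, shapes for replicate numbers, and bars for the mean and SD. TAPBP is lower in each si-METTL16 library, and B2M is at 117 and 105 CPM in replicates 1 and 3 but at 525 CPM in replicate 2.

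The promoters of these genes are known to share elements bound by interferon regulatory factors, NF-kappaB and the RFX, CREB and NF-Y factors. The RefSeq windows from 250 bases before to 50 bases after the gene start (GRCh38.p14) were searched on both strands, and 8 of the 9 genes had a window; HLA-E had none. An interferon response element, written here as GAAA, then 2 bases of any kind, then GAAA, was found in 6 of the 8 windows and in 3.57% of all 34796 windows of that length. Matches to this element overlapped each other in the windows of B2M, TAP1 and TAPBP. A kappaB element, GGG, 2 bases of any kind, TT, 1 base of any kind, then CC, was found in 5 of the 8 (5.67% of all windows), a CCAAT box in 6 of the 8 (34.6%) and the CRE core TGACG in 4 of the 8 (24.5%). The lines below give 30 bases around 1 interferon element for each gene that holds one, shown because TAPBP, which fell, shares this element with B2M, TAP1, TAP2, HLA-F and ERAP1, which did not pass the test. Each reads 5′ to 3′ along the gene's own strand, with the match in capitals, and a match that begins with TTTC is the same element on the opposite strand. The last line gives the kappaB element of HLA-B.
TAPBP, chr6:33314079-33314108, minus strand, match at -20 to -11 from the start: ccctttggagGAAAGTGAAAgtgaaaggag
B2M, chr15:44711369-44711398, plus strand, match at -138 to -129: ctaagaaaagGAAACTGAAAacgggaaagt
TAP1, chr6:32853813-32853842, minus strand, match at -128 to -119: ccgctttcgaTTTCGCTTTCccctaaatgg
TAP2, chr6:32838778-32838807, minus strand, match at -58 to -49: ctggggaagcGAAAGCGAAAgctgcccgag
HLA-F, chr6:29723268-29723297, plus strand, match at -156 to -147: ctccccagagTTTCTCTTTCtctcccaacc
ERAP1, chr5:96807924-96807953, minus strand, match at 2 to 11: cgggctccacTTTCACTTTCggtcctgggg
HLA-B, chr6:31357337-31357366, minus strand, kappaB match at -177 to -168: gcgcagcgttGGGGATTCCCcactcccctg
In the TAPBP and B2M windows the kappaB element lay near the interferon element, at -56 to -47 for TAPBP and, on the opposite strand, at -125 to -116 for B2M. TAP1 and ERAP1 also held both, with the kappaB element at -72 to -63 for TAP1 and -73 to -64 for ERAP1. These matches describe letters in a window, and no binding was measured.

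TAPBP (ENSG00000231925, chromosome 6, 33299694 to 33314387, minus strand) was measured at 278, 267 and 275 CPM in si-NC replicates 1, 2 and 3. In si-METTL16 replicates 1, 2 and 3 it was measured at 144, 146 and 102 CPM. The silenced libraries therefore held 52.6%, 53.5% and 37.4% of the control mean, and none came near the lowest control. The mean was 274 ± 5.64 CPM in si-NC against 131 ± 24.7 CPM in si-METTL16 (SD, n = 3 each). The log2 fold change was -1.06 (SE 0.13, 95% interval -1.38 to -0.75, edgeR adjusted p = 0.00112). TAPBP passed the threshold in all 15 alternative fits, in which its log2 fold change ran from -1.15 to -0.91 and its adjusted p reached at most 0.00605. The deepest drop was in si-METTL16 replicate 3, and without that library the change was -0.91.

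B2M (ENSG00000166710, chromosome 15, 44711487 to 44718877, plus strand) is the common light chain and gave 9131, 9227 and 9699 counts in si-NC replicates 1, 2 and 3. The si-METTL16 replicates 1, 2 and 3 gave 1920, 8193 and 1892 counts. On the CPM scale these were 540, 544 and 553 against 117, 525 and 105. Replicates 1 and 3 of si-METTL16 thus held 21.4% and 19.3% of the control mean, while replicate 2 held 96.3% and lay just below the lowest control library. Replicate 2 was 4.49 times replicate 1 and 4.99 times replicate 3, although METTL16 itself was at 33.9 CPM in replicate 2 and at 34.8 and 34.9 CPM in the other silenced libraries. The group means were 546 ± 6.7 CPM and 249 ± 239 CPM (SD, n = 3 each), a coefficient of variation of 1.23% in si-NC and 96.0% in si-METTL16. The log2 fold change of B2M was -1.13 (SE 0.59, 95% interval -2.51 to 0.25) and did not pass the threshold (edgeR adjusted p = 0.174). Leaving out si-METTL16 replicate 2 gave -2.30 with an edgeR adjusted p of 0.000755, and leaving out replicate 1 or replicate 3 gave -0.80 and -0.76 with edgeR adjusted p-values of 0.352 and 0.342. The call on B2M thus rested on which silenced library was left out, and it was made in 1 of 15 alternative fits, over which the adjusted p ran from 0.000755 to 0.352.

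Such a spread within the silenced group was rare but not unique to B2M. Over the 7545 genes at or above the median level, the log2 range between the highest and lowest si-METTL16 library had a median of 0.18, the same as in si-NC. B2M had a range of 2.32 in si-METTL16 and 0.03 in si-NC, and 23 genes (0.305%) had a wider range in si-METTL16. Of the 229 genes whose si-METTL16 libraries spanned at least 1 log2 unit, replicate 1 was farthest from the middle library in 83, replicate 2 in 71 and replicate 3 in 75. In si-NC, 194 genes spanned at least 1 log2 unit. No single library was the odd one for most genes of wide spread. Such a near-even split does not tell why replicate 2 kept B2M, which was not tested.

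The 5 genes whose pattern across the 6 libraries lay nearest to B2M, by the root mean square difference of log2 CPM from each gene's own si-NC mean among 7537 genes, were TBCEL, RAB26, WBP1, SMS and ZNF791. This measure was chosen after the data were seen. TBCEL, a relative of the tubulin-folding cofactor E, was nearest (0.38 log2 units), at 27.2%, 65.1% and 30.1% of its si-NC mean in si-METTL16 replicates 1, 2 and 3. WBP1 was at 43.4%, 87.2% and 37.8%, and ZNF791, a zinc finger gene, at 34.8%, 103% and 50.4%. SMS, the spermine synthase gene, was at 27.0%, 37.9% and 29.7%, lower than the controls in all 3 silenced libraries, and RAB26 at 31.1%, 47.4% and 33.7%. All 5 were higher in replicate 2 than in replicates 1 and 3, but by smaller factors than B2M. They were picked for likeness to B2M, so this is no independent sign of a shared pattern. By Pearson correlation of log2 CPM over the 6 libraries, the genes most like B2M were HERC2P3 (r = 0.981), PIN4 (0.976) and KYAT3 (0.975), whose si-METTL16 levels stayed between 77.2% and 99% of their si-NC means. The 6 points share their libraries and depth, so these values describe a likeness only.

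**Figure D2:**
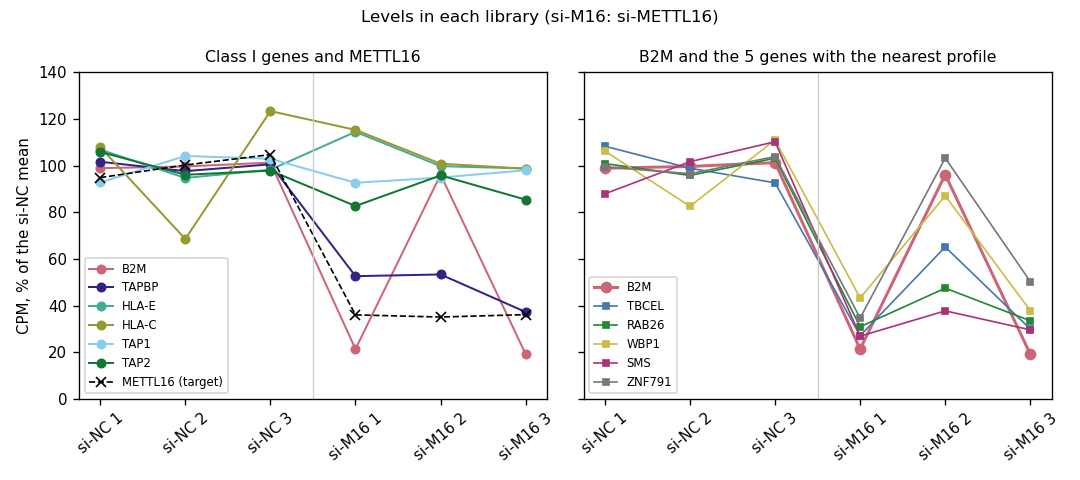
Level in each library as a percentage of the si-NC mean of CPM (vertical axis), with 1 point per library and lines that only guide the eye; the left panel shows 6 class I genes and METTL16, the right panel B2M and the 5 genes with the nearest pattern. METTL16 is lowered alike in the 3 si-METTL16 libraries, whereas B2M is at 21.4%, 96.3% and 19.3% in replicates 1, 2 and 3.

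For TAPBP, the nearest patterns by the same distance were those of LRP8 (0.11 log2 units), the ribosomal protein gene RPL3 (0.13), the ubiquitin-conjugating enzyme gene UBE2H (0.14), NFE2L3 (0.14) and the tubulin cofactor gene TBCE (0.15). Each of these genes, picked for that likeness, was lowered to between 39.0% and 57.8% of its si-NC mean in every silenced library. By Pearson correlation the most alike were LIMA1 (r = 0.997), MRPL45 (0.995) and DNASE1L1 (0.995).

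None of the 4 heavy chain genes passed the edgeR test in either direction. HLA-E (ENSG00000204592, chromosome 6, 30489467 to 30494205, plus strand), a ligand of the NKG2A receptor on natural killer cells, was at 211, 187 and 194 CPM in si-NC and at 226, 197 and 195 CPM in si-METTL16. The groups overlapped, and the log2 fold change was 0.06 (SE 0.08, 95% interval -0.13 to 0.25, edgeR adjusted p = 0.586). That sign rested on si-METTL16 replicate 1, without which it was -0.01.

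HLA-C (ENSG00000204525, chromosome 6, 31268749 to 31272130, minus strand), a ligand of killer-cell receptors, was at 65.6, 41.7 and 75.0 CPM in si-NC and at 70.1, 61.3 and 60.0 CPM in si-METTL16. The controls varied more than the silenced libraries, with a coefficient of variation of 28.2% in si-NC and si-NC replicate 2 lowest of all 6 libraries. Its log2 fold change was 0.07 (SE 0.20, 95% interval -0.40 to 0.54, edgeR adjusted p = 0.811), turning to -0.15 without si-NC replicate 2 and to -0.01 without si-METTL16 replicate 1.

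HLA-B (ENSG00000234745, chromosome 6, 31269491 to 31357188, minus strand), the most variable of the classical heavy chain genes between people, was at 28.6, 25.7 and 23.3 CPM in si-NC and at 31.1, 28.4 and 27.1 CPM in si-METTL16. The ranges overlapped, with means of 25.8 ± 2.66 and 28.9 ± 2.01 CPM (SD, n = 3 each). The log2 fold change was 0.16 (SE 0.11, 95% interval -0.09 to 0.41, edgeR adjusted p = 0.281).

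HLA-F (ENSG00000204642, chromosome 6, 29722775 to 29738528, plus strand), a non-classical heavy chain gene, was near the lower limit of the test, with 21, 25 and 44 counts in si-NC and 15, 17 and 22 counts in si-METTL16. These were 1.24, 1.47 and 2.51 CPM against 0.914, 1.09 and 1.22 CPM. The highest silenced library, replicate 3 at 1.22 CPM, lay just below the lowest control, replicate 1 at 1.24 CPM. The log2 fold change of -0.69 (SE 0.34, 95% interval -1.50 to 0.12) did not pass (edgeR adjusted p = 0.16), and it was -0.33 without si-NC replicate 3.

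Reads of the heavy chain genes are hard to assign, since the genes are near copies of each other. In the coordinates of the deposited table, HLA-B spans 87698 bases and overlaps HLA-C by 2640 bases, which is 78.1% of HLA-C, on the same strand. HLA-C made up a share of 0.693, 0.615 and 0.760 of the summed FPKM of HLA-B and HLA-C in si-NC and of 0.690, 0.680 and 0.685 in si-METTL16. HLA-F overlaps its antisense gene HLA-F-AS1 by 11928 bases, and HLA-F-AS1 had 163% of the counts of HLA-F with a log2 fold change of -0.75 (edgeR adjusted p = 0.0517). Use of strand in counting is not given in the sources used here, so the values of these pairs cannot be fully separated.

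A class I molecule holds 1 heavy chain and 1 light chain, and the ratio of their transcripts was computed per length. The FPKM of the 4 heavy chain genes summed to 69.0, 58.7 and 65.5 in si-NC and to 72.4, 63.7 and 63.3 in si-METTL16. Divided by the FPKM of B2M, this gave 1.68, 1.42 and 1.56 in si-NC and 8.32, 1.62 and 8.0 in si-METTL16. Replicates 1 and 3 of si-METTL16 stood far above every other library, and replicate 2 lay within the control range. The mean log2 ratio was 1.62 higher in si-METTL16 (exact permutation test, 2-sided, p = 0.2, where 0.1 is the smallest p that 3 against 3 libraries can give). The level of the ratio depended on the length used: per kilobase of the MANE reference transcript it was 0.253, 0.205 and 0.241 in si-NC and 1.25, 0.244 and 1.2 in si-METTL16. The controls thus had more heavy chain than B2M signal by FPKM and less by MANE length, so the ratio does not give the balance of the chains. The difference between groups was 1.62 on either scale.

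TAP1 (ENSG00000168394, chromosome 6, 32845209 to 32853978, minus strand) was at 62.3, 69.9 and 69.1 CPM in si-NC and at 62.2, 63.7 and 65.8 CPM in si-METTL16. The groups overlapped (log2 fold change -0.07, SE 0.07, 95% interval -0.24 to 0.10, edgeR adjusted p = 0.491). TAP2 (ENSG00000204267, chromosome 6, 32821833 to 32838780, minus strand) was at 77.6, 70.4 and 71.7 CPM in si-NC and at 60.6, 70.2 and 62.6 CPM in si-METTL16. For TAP2 the si-METTL16 replicate 2 library again lay nearest to the controls, at 70.2 CPM against 70.4 CPM in si-NC replicate 2. The log2 fold change was -0.18 (SE 0.08, 95% interval -0.38 to 0.01) and did not pass (edgeR adjusted p = 0.123).

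The transporter works as a pair of 1 TAP1 and 1 TAP2. The ratio of TAP1 to TAP2 in FPKM was 1.12, 1.38 and 1.34 in si-NC and 1.42, 1.26 and 1.46 in si-METTL16, a mean log2 difference of 0.12 that was within the spread (exact permutation test, 2-sided, p = 0.5). The ratio of TAPBP to TAP1 in FPKM was 4.0, 3.43 and 3.57 in si-NC and 2.07, 2.06 and 1.39 in si-METTL16, with no overlap. That difference of -1.01 on the log2 scale had p = 0.1 in the exact permutation test, the smallest p the design allows. This ratio was added after the data were seen, and its difference restates the fall of TAPBP beside a TAP1 that did not pass.

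ERAP1 (ENSG00000164307, chromosome 5, 96760810 to 96808100, minus strand) was at 49.4, 45.9 and 46.6 CPM in si-NC and at 47.4, 48.1 and 40.4 CPM in si-METTL16. The groups overlapped, and the log2 fold change was -0.06 (SE 0.09, 95% interval -0.28 to 0.15, edgeR adjusted p = 0.627), or 0.01 without si-METTL16 replicate 3. ERAP1 overlaps CAST, the calpastatin gene, by 18786 bases on the opposite strand. CAST had 984% of the counts of ERAP1 and fell by 0.61 on the log2 scale (edgeR adjusted p = 0.000237), and its part in the ERAP1 value was not tested.

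**Figure D3:**
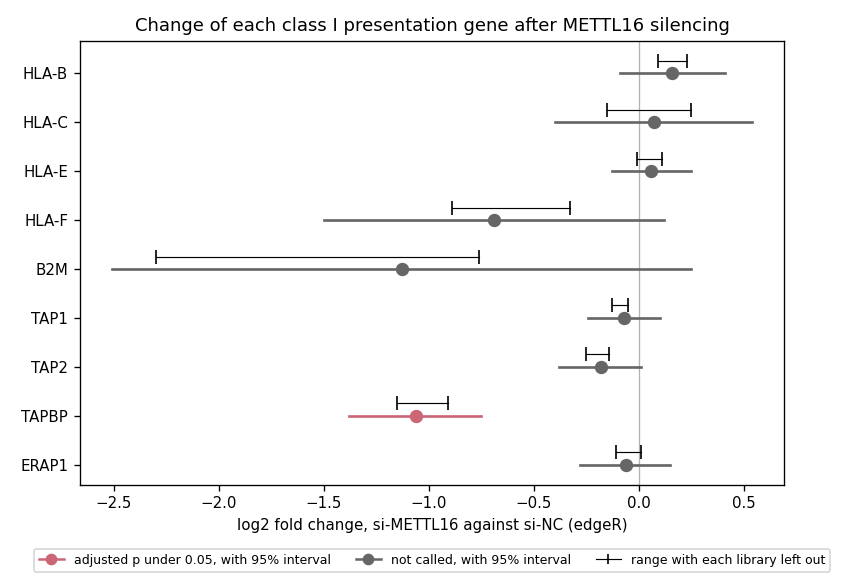
Log2 fold change of the 9 class I presentation genes, si-METTL16 against si-NC (horizontal axis), with the 95% interval as a thick line and, above it, the range of the value when each of the 6 libraries was left out. The TAPBP interval, -1.38 to -0.75, stays below 0, and the B2M interval, -2.51 to 0.25, is the widest of the 9.

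The order of the 9 genes by level was set per length. In si-NC the FPKM, computed by the authors, was highest for HLA-E (50.2 ± 3.08, SD, n = 3), then B2M (41.4 ± 0.547) and TAPBP (31.7 ± 0.656). HLA-C (9.81 ± 2.77) and TAP1 (8.68 ± 0.547) overlapped, TAP2 followed (6.81 ± 0.352), ERAP1 (4.67 ± 0.178) and HLA-B (4.24 ± 0.432) overlapped, and HLA-F was lowest (0.203 ± 0.0789). In si-METTL16 HLA-E stayed first with an FPKM of 51.5 ± 4.04, B2M (18.6 ± 17.9) overlapped TAPBP (14.9 ± 2.77), and HLA-B (4.66 ± 0.301) overlapped ERAP1 (4.40 ± 0.398).

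The length behind these FPKM values matters most for B2M. Counts and FPKM together imply a length of 13254 bases for B2M, more than the 7391 bases it spans in the table, and its MANE transcript has 943 bases. The implied length exceeded the span in 13.7% of tested genes and in 2 of the 9, B2M and HLA-C, and it exceeded the MANE transcript length in all 9, so the FPKM order may shift for any of them. On the scale of CPM per kilobase of MANE transcript, B2M in si-NC was highest (579 ± 7.1), then TAPBP (79.3 ± 1.63) and HLA-E (77.5 ± 4.79), which overlapped. On this scale in si-METTL16, TAPBP (37.9 ± 7.16) overlapped HLA-C (41.4 ± 3.59), and B2M ranged from 112 to 557. Changes between groups do not depend on this length.

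Among 10 tested genes of peptide loading and trimming, 2 rose and 2 fell, with a median log2 fold change of -0.05. That is 40% called, near the 35.9% of all genes tested. The chaperones of the loading complex gave 0.09 for CALR, 0.01 for CANX and -0.08 for PDIA3, and none passed (edgeR adjusted p-values of 0.455, 0.93 and 0.453). ERAP2, the second trimming peptidase of the endoplasmic reticulum, fell from 33.7, 33.1 and 33.3 CPM to 21.8, 21.7 and 19.1 CPM (log2 fold change -0.67, edgeR adjusted p = 0.0013). The endosomal trimming peptidase LNPEP also fell (-0.59, edgeR adjusted p = 0.000613). TPP2, a cytosolic peptidase, rose by 0.33 (edgeR adjusted p = 0.00406). THOP1, which degrades peptides in the cytosol, rose by 0.31 (edgeR adjusted p = 0.0297), a call kept without si-METTL16 replicate 1 and lost when any other library was left out.

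The immunoproteasome makes many of the peptides that class I molecules carry. Of 9 tested genes, counting the activators and the constitutive subunits PSMB5, PSMB6 and PSMB7, 2 fell in the edgeR test. There and in each of 15 alternative fits 0 rose, and at an unadjusted p under 0.05 the counts were 3 lower and 1 higher. Among all genes tested, 17.5% fell and 18.4% rose, and at an unadjusted p under 0.05 these shares were 22.7% and 23.5%. PSMB9, whose subunit replaces a constitutive one, was at 11.6, 12.1 and 12.1 CPM in si-NC and at 6.16, 5.96 and 5.84 CPM in si-METTL16. Its log2 fold change was -1.0 (SE 0.11, edgeR adjusted p = 0.000735), with values tight in both groups. PSMB9 and TAP1 are neighbours that are read from a shared promoter region in opposite directions, and in the table's coordinates TAP1 lies wholly inside PSMB9. PSMB8, a neighbouring subunit gene, gave 0.22 and did not pass (edgeR adjusted p = 0.0868). PSMB10, a further immunoproteasome subunit gene, gave -0.40 and did not pass either (edgeR adjusted p = 0.0979). PSME1, a subunit of the proteasome activator PA28, fell by 0.63 (edgeR adjusted p = 0.00982).

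Of 20 tested interferon-stimulated genes in a list of 28, 9 fell and 0 rose in the edgeR test, with a median log2 fold change of -0.60 against 0 for all genes tested. The 9 are 45% of those tested, beside 17.5% lower and 18.4% higher among all genes. In the 15 alternative fits 9 to 10 fell and 0 rose, and at an unadjusted p under 0.05 the counts were 12 lower and 0 higher, beside 22.7% and 23.5% of all genes. The antiviral genes IFIT2 (-1.39, edgeR adjusted p = 0.000145) and IFIT3 (-1.14, 0.00114) and the interferon-induced gene IFI35 (-1.18, 0.00618) were lowest. HLA-B, HLA-C, HLA-E and TAP1, which interferon can also induce, did not pass. The class I presentation genes B2M, TAP2, HLA-F and ERAP1 did not pass either, nor did the immunoproteasome genes PSMB8 and PSMB10. TAPBP (-1.06, edgeR adjusted p = 0.00112) and PSMB9 (-1.0, 0.000735), which interferon can induce too, fell. The part of interferon signalling in these values was not tested.

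Of 16 tested factors that act on class I promoters, 2 rose, 4 fell and 10 did not pass, with a median of -0.21. The share called, 37.5%, was near the 35.9% of all genes tested. The number that fell was 2 without si-METTL16 replicate 1 or without replicate 2. NLRC5, the class I transactivator, was at 2.19 ± 0.366 CPM in si-NC against 2.29 ± 0.556 CPM in si-METTL16 (log2 fold change 0.06, edgeR adjusted p = 0.883). RFXANK, a subunit of the RFX complex, fell by 0.69 (edgeR adjusted p = 0.00489) and NFKB2 by 0.54 (0.00761), while the CREB relative ATF1 rose by 0.52 (0.00168). The NF-Y subunit NFYC gave -0.34 (edgeR adjusted p = 0.0227), lost without si-NC replicate 3 or si-METTL16 replicate 1 or 2. IRF1 gave 0.58 (edgeR adjusted p = 0.0193), lost without si-NC replicate 1 or 2 or si-METTL16 replicate 1 or 2.

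In interferon receptor signalling, 6 of 16 tested genes rose and 4 fell, with a median of 0.18, beside 18.4% higher and 17.5% lower among all genes tested. STAT3 (0.72, edgeR adjusted p = 0.000314) and SOCS3 (0.52, 0.00585) were among the higher genes. The receptor chain IFNAR1 (-0.71, edgeR adjusted p = 0.0004) and the feedback inhibitors USP18 (-1.39, 0.00379) and SOCS1 (-1.18, 0.0107) were among the lower ones.

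Class I-like and stress ligand genes include several ligands of the NKG2D receptor of natural killer cells. Of 10 tested in a list of 14, 2 rose and 3 fell (beside 18.4% and 17.5% of all genes tested), with a median log2 fold change of -0.40, and 1 fell without si-METTL16 replicate 2 or without replicate 3. MICB rose from 99.2, 120 and 118 CPM to 210, 197 and 209 CPM (0.87, SE 0.08, edgeR adjusted p = 0.000438). MICA rose from 17.7, 24.0 and 20.4 CPM to 36.1, 36.9 and 36.9 CPM (0.82, SE 0.12, edgeR adjusted p = 0.00215). Both MICA and MICB were higher in every silenced library than in any control. Among the other stress ligand genes tested, ULBP1 (-0.54), ULBP2 (0.12), ULBP3 (-0.55) and RAET1E (-0.16) did not pass. FCGRT, the heavy chain of the neonatal Fc receptor that also pairs with B2M, fell by 0.72 (edgeR adjusted p = 0.00928). MR1, which presents vitamin B metabolites with B2M, gave -0.96 (edgeR adjusted p = 0.0408), a call lost without si-NC replicate 1 or 2 or si-METTL16 replicate 2 or 3. RAET1G, a further stress ligand gene, gave -1.41 (edgeR adjusted p = 0.028), lost without si-NC replicate 3 or any single si-METTL16 library. HLA-G and CD1D had 0 counts in all 6 libraries.

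Among 8 tested genes of class I turnover and surface loss, the single call, or 12.5% beside 35.9% of all genes, was MARCHF4, a membrane ubiquitin ligase able to lower surface class I when overexpressed. It rose from 57, 75 and 55 counts to 499, 494 and 546 counts, or from 3.64 ± 0.682 to 30.8 ± 0.74 CPM (SD, n = 3 each). Its log2 fold change was 3.08 (SE 0.14, edgeR adjusted p = 8.34e-05). The other 7, with HM13 and the ubiquitin ligase WWP2 among them, had values from -0.18 to 0.24 and did not pass. Class II genes were near 0 in these cells, with 3 of 13 tested and HLA-DRA at 0 counts in all libraries. HLA-DMA gave -1.58 (edgeR adjusted p = 0.023), a call lost without si-NC replicate 1 or 2.

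**Figure D4:**
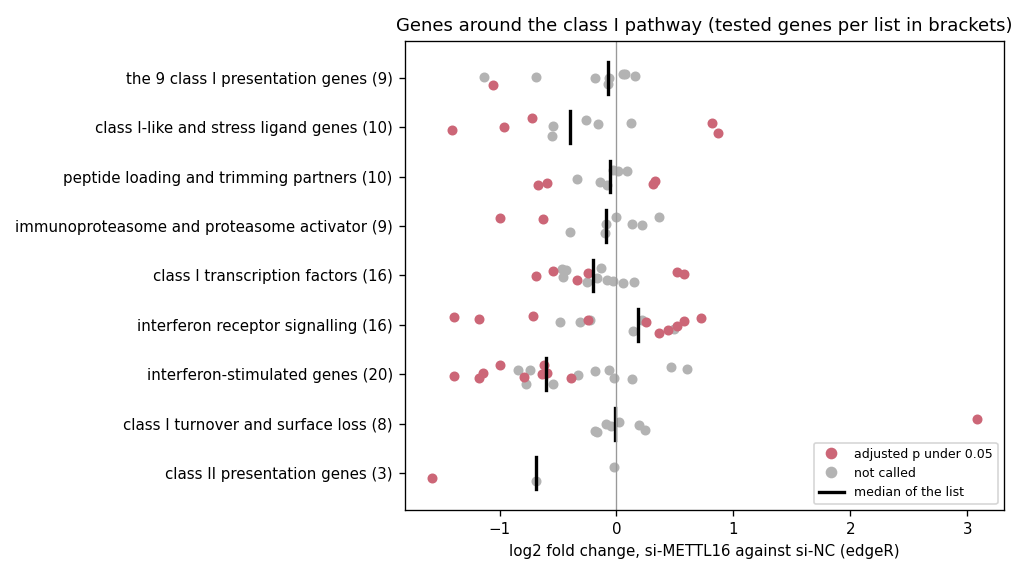
Log2 fold change (horizontal axis) of each tested gene in the 9 class I presentation genes and in 8 lists around them, with 1 point per gene, colour for an adjusted p under 0.05 and a black bar at the list median. The interferon-stimulated genes sit mostly below 0 with a median of -0.60, and MARCHF4 stands alone at 3.08.

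Of the 9 genes, 7 lie on chromosome 6 within the 3592 kilobases from the start of HLA-F to the end of TAPBP. The table lists 304 other genes there, of which 100 were tested, and 18 rose and 12 fell. That is 30% called, against 35.9% in the whole table, with a median log2 fold change of 0.04. The genes that rose most were TNXB (2.17, lost without si-NC replicate 1 or 2 or si-METTL16 replicate 1 or 3), COL11A2 (2.03) and TCF19 (1.62). TNXB gave 2, 6 and 10 counts in si-NC and 27, 13 and 41 in si-METTL16. COL11A2 gave 5, 9 and 6 counts against 26, 23 and 32. Both passed the filter on low counts through their si-METTL16 libraries, where they are high, so their rank is no independent result. Those that fell most were ATP6V1G2 (-2.15, lost without any single si-NC library or si-METTL16 replicate 2), SLC44A4 (-1.89) and RPL3P2 (-1.74). RPL3P2, a processed copy of RPL3, lies inside the span that the table gives to HLA-B. Lower and higher genes were interspersed along the region, and TAPBP and PSMB9 lie in its last part.

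**Figure D5:**
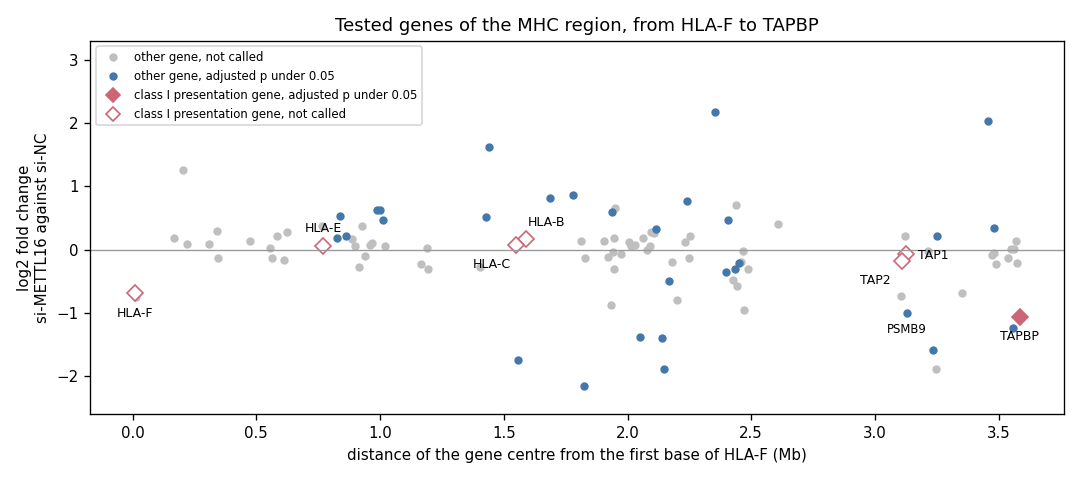
Log2 fold change (vertical axis) of each tested gene between HLA-F and TAPBP by the distance of its centre from the first base of HLA-F in megabases (horizontal axis), with diamonds for 7 class I presentation genes and filled colour for an adjusted p under 0.05. TAPBP at -1.06 is the single filled diamond, with called genes of either sign spread along the region.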

How the data were processed

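Total RNA of 6 PANC-1 cultures was sequenced, 3 given control siRNA and 3 given siRNA against METTL16. The authors deposited 1 table with raw read counts per gene and FPKM per gene for each library. The submitters' processing notes name HISAT2 2.0.4, StringTie 1.3.0 and the genome build GRCh38. The counter, the annotation and the use of strand are not given in the sources used here. The FPKM values are the authors' own and were used for levels per length and as an alternative scale. Groups and replicate numbers came from the sample titles. The methylated RNA sequencing of the study was not analysed here.

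Genes with enough counts were kept with filterByExpr (minimum count 10, minimum total 15), counts were scaled by TMM, and si-METTL16 was tested against si-NC with the quasi-likelihood test of edgeR 4.0.16 in R 4.3.3. P-values were adjusted over all 15089 genes tested by Benjamini-Hochberg, with a threshold of 0.05. The study names limma without a filter or transformation, so limma 3.58.1 was run as an alternative, on voom weights and on log2(FPKM + 1) and log2(FPKM + 0.1) for genes whose mean FPKM reached 1. DESeq2 1.42.0, other size factors, other filters, a replicate block and leaving out each library were further alternatives. Intervals are 95% and come from the edgeR fit. Ratios were tested with 2-sided exact permutation tests. The scripts were tested on simulated data. There the edgeR test called 52 of 85 genes changed by 1 log2 unit and 104 of 108 changed by 2. It called 0 with the wrong sign and 11 unchanged genes. The simulation held far fewer changed genes than were called in the data, so these shares do not carry over. A gene that did not pass may still have changed. Within each group the replicate libraries differed by more than sampling noise.

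The 9 genes and the lists were chosen with earlier results of these data known. Named genes were the 9, METTL16, the up to 3 highest and 3 lowest called genes without group overlap in each list and in the region, the 3 genes most correlated with a member, and genes overlapping one. CALR, CANX, PDIA3, PSMB5, PSMB6, PSMB7, PSMB8, PSMB10, NLRC5, HM13, WWP2, HLA-G, CD1D, ULBP1, ULBP2, ULBP3, RAET1E, HLA-DRA and the cell type markers were named outside this rule, with their values known. The search for near patterns, the MANE lengths (GENCODE 44) and the TAPBP to TAP1 and HLA-C ratios were added after the data were seen. In the table, 27 symbols turned into dates were repaired by their gene identifiers. Of the 9 genes, 3 had the same start and end in GENCODE 44, and gene positions are those of the table. Of columns with values per sample, all were assigned to a sample. Some genes counted in the lists are not reported here by name.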

Additional observations from a re-analysis of the deposited data

How the results depend on the processing

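The number of genes called was 5418, and 3035 at an adjusted p under 0.01. The number of the 9 called lower was 1 in every other setting run and ran from 1 to 2 when each library was left out, B2M being added without si-METTL16 replicate 2. No setting called any of the 9 higher. B2M was -2.30 in that fit and -1.13 with all libraries, -1.57 with limma voom (adjusted p = 0.0517) and -1.56 to -1.48 with limma on FPKM. Over the fits that leave out 1 library, HLA-C ran from -0.15 to 0.25, HLA-E from -0.01 to 0.11 and ERAP1 from -0.11 to 0.01. Signs turned for HLA-C without si-NC replicate 2 (-0.15) and without si-METTL16 replicate 1 (-0.01), for HLA-E without si-METTL16 replicate 1 (-0.01) and for ERAP1 without si-METTL16 replicate 3 (0.01), all far from the threshold. The cause was not tested. When each library was left out, the log2 difference of the heavy chain to B2M ratio ran from 1.21 to 2.39, highest without si-METTL16 replicate 2, and that of the TAP1 to TAP2 ratio from 0.02 to 0.18.

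Same-numbered si-NC and si-METTL16 libraries had correlations of 0.0253, 0.0371 and 0.0298 in their deviations from the group means, so the numbers were not taken to pair the libraries. With a replicate block 5013 genes were called, TAPBP was -1.08 and stayed called, and B2M was -1.58 (adjusted p = 0.0687). IRF1 and HLA-DMA lost their calls under the block. Of 477 alternative values of the 33 named genes outside the 9, 443 kept the call, 34 lost it and 0 turned sign, and 25 genes were called in every alternative. HLA-F, at 15 to 44 counts, is limited by depth, and groups of 3 limit every interval.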
